A study of Homo sapiens with 6 samples.

Results

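N-myristoylation is the attachment of myristate, a saturated fatty acid, to the glycine at the N-terminus of a protein, which helps the protein to bind membranes. Enzymes and factors of this pathway (5 genes) and proteins that carry the modification (5 genes) were examined, chosen by symbol from the 21776 genes of a count table. All 10 genes were found in the table and all 10 passed the filter on low counts. NMT1, NMT2, METAP1, METAP2 and ACBD6 belong to the machinery. CHP1, SRC, YES1, LYN and MARCKS are substrates.

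The libraries were made from SCC25, an established line of oral squamous cell carcinoma labelled as wild type, of which 3 libraries came from cells under hypoxia (1% O2) and 3 from cells under normoxia (an air incubator), each for 12 h and both with 5% CO2. A legend in the study's text names SCC9, another oral squamous line, for a pathway analysis under hypoxia, and the labels were followed here. Under hypoxia, replicates 1 to 3 held 30186813, 36076088 and 32272716 counted reads, and the normoxia libraries, in the same order, 37278703, 29637189 and 29981208. Values after ± are standard deviations over the 3 libraries of a condition (n = 3), and values of single libraries are given in the order of the replicates. The labels do not say that replicates were separate cultures, so the p-values measure the spread between these libraries, which may be technical. In bulk RNA, fewer cells that express a gene and less RNA per cell cannot be told apart.

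Myristoylation takes place mostly while the protein is still being made. Methionine aminopeptidases (METAP1 and METAP2) remove the initiator methionine, and an N-myristoyltransferase (NMT1 or NMT2) then transfers myristate from myristoyl-CoA to the exposed glycine. ACBD6 binds acyl-CoA and assists the transferases. Among the substrates, SRC, YES1 and LYN are kinases of the SRC family, MARCKS is a membrane and actin-binding target of protein kinase C, and CHP1 is a calcium-binding protein and a cofactor of the acyltransferase GPAT4. The study asked how hypoxia and myristoylation bear on the immune checkpoint ligand PD-L1, with CHP1 as the substrate it examined.

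The glycine that is modified can be read from the coding sequences of the substrates, which were listed as known myristoylated proteins. The first 30 coding bases of 4 substrates are shown because they hold the site of modification, with the second codon, which encodes glycine, in capitals. They were read from GENCODE release 29 transcripts (GRCh38), 5′ to 3′ on the coding strand. The bases lie at chr15:41231383-41231412 (plus strand) for CHP1, chr20:37384154-37384183 (plus) for SRC, chr18:756798-756827 (minus) for YES1 and chr6:113857746-113857775 (plus) for MARCKS, each within 1 coding exon.
CHP1: atgGGTtctcgggcctccacgttactgcgg
SRC: atgGGTagcaacaagagcaagcccaaggat
YES1: atgGGCtgcattaaaagtaaagaaaacaaa
MARCKS: atgGGTgcccagttctccaagaccgcagcg

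All 5 substrates, LYN included, had a glycine codon at position 2 and a serine or threonine codon at position 6, a feature that favours recognition by the transferases. The 5 machinery genes have an alanine codon at position 2. In the annotation deposited beside the counts, 8 of the 10 genes carry the term "plasma membrane", METAP1 and ACBD6 being the exceptions.

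Transcripts of the transferases and the aminopeptidases were lower under hypoxia, whereas the substrates divided. At an adjusted p-value under 0.05 by edgeR's quasi-likelihood test, 5 of the 10 genes were lower (NMT1, NMT2, METAP1, METAP2 and LYN), 3 were higher (CHP1, SRC and MARCKS), and ACBD6 and YES1 did not pass. Across all 14255 genes tested, 77.8% passed, 39.2% as higher and 38.5% as lower, so a pass by itself is common in this comparison. The median log2-fold change was -0.24 over the 10 genes and 0.023 over all genes tested. In 9 of the 10 genes the hypoxia and normoxia libraries did not overlap, against 80.5% of all genes tested. Hypoxia was the higher condition in 3 of these 9 and the lower in 6, where 40.6% and 39.9% of all genes tested separated in these directions. Log2-fold changes past 0.5 in size were found for 3 higher and 3 lower members, beside 29.8% and 25.7% of all genes tested. For MARCKS, the largest change among the members, 33.5% of all genes tested had a larger log2-fold change in size, and for NMT1 this share was 50.9%.

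**Figure D1:**
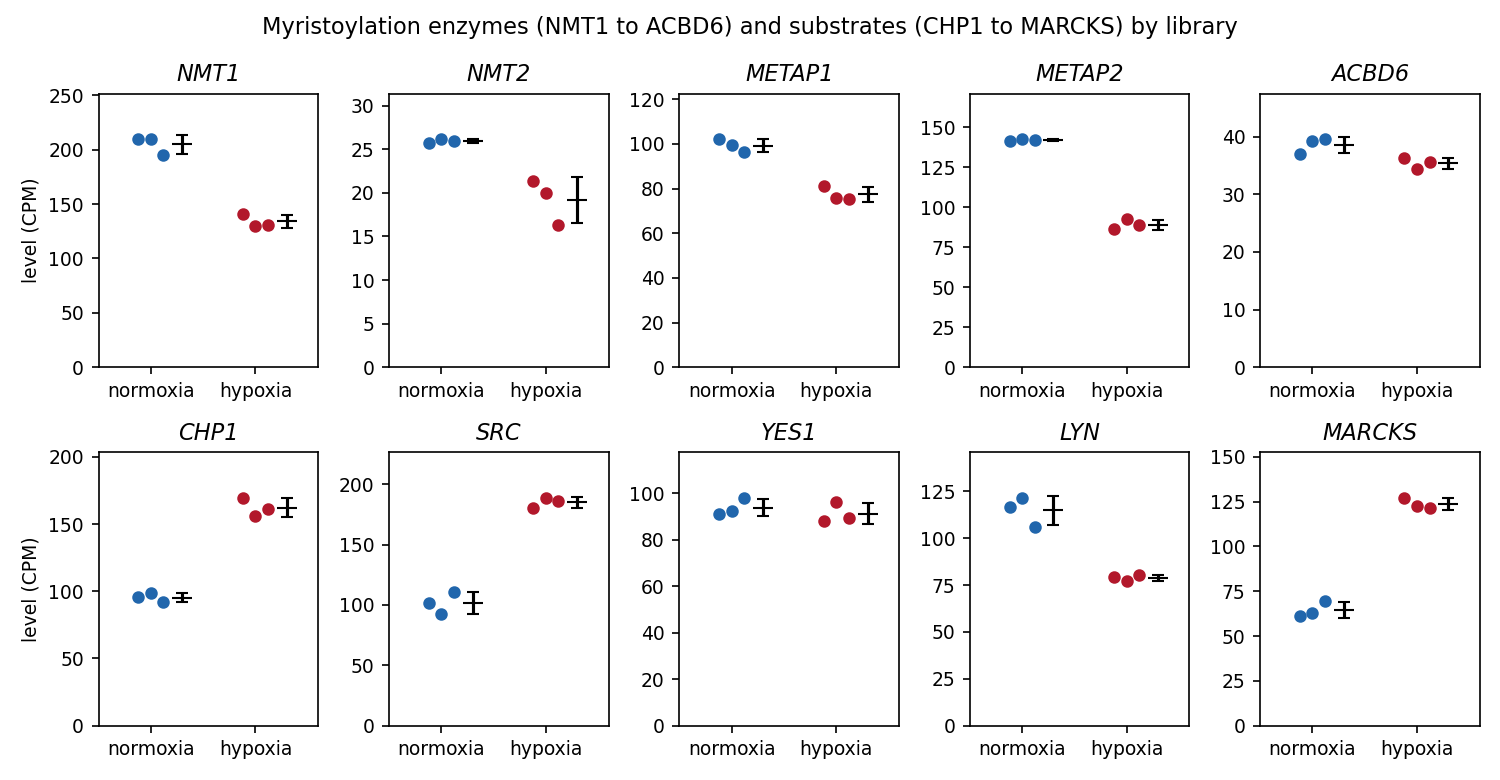
Levels of the 10 genes in CPM in each library, with points for the 3 normoxia (blue) and 3 hypoxia (red) libraries and the mean ± SD beside them; every axis starts at 0. The conditions overlap for YES1 and separate for the other 9 genes.

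NMT1 encodes the main N-myristoyltransferase of most cells. It was at 141, 130 and 131 CPM in the hypoxia libraries and at 209.8, 209.7 and 195 CPM in the normoxia libraries, where CPM are counts scaled by the normalized library total to a common depth. All hypoxia libraries lay below all normoxia libraries. The log2-fold change was -0.61 (standard error, SE, 0.055, with edgeR adjusted p = 1.55e-08), or 0.655-fold. In the deposited FPKM table the row of NMT1 holds the same 6 values as the row of EGLN3, so only the counts were used for NMT1.

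NMT2 encodes the second transferase. Its levels were 21.4, 20.003 and 16.3 CPM under hypoxia and 25.7, 26.2 and 26.0 CPM under normoxia, again without overlap. Hypoxia replicate 3 was the lowest library. The log2-fold change was -0.43 (SE 0.095, edgeR adjusted p = 0.000487). NMT2 shares 379 of its 4700 exonic bases in GENCODE with RPP38 on the opposite strand, and RPP38 fell by 0.97 on the log2 scale (22.4 to 11.4 CPM). Whether reads of RPP38 were counted for NMT2 was not tested.

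The paralogs were compared as a pair, since reads could have been divided between them. NMT1 took 86.8%, 86.7% and 88.9% of the reads of both genes in the hypoxia libraries and 89.1%, 88.9% and 88.2% in the normoxia libraries. The ranges overlapped, and the difference was -1.26 percentage points (two-sided exact permutation test, p = 0.3, where 0.1 is the smallest p that 3 against 3 allow). The standard deviation of the share was 1.26 percentage points under hypoxia and 0.438 under normoxia. The summed counts of both genes had a log2-fold change of -0.59 (SE 0.055, edgeR adjusted p = 2.60e-08).

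Both aminopeptidases fell. METAP2 was at 86.4, 92.5 and 88.7 CPM under hypoxia against 142, 143 and 142 CPM under normoxia. This was a log2-fold change of -0.67 (SE 0.052, edgeR adjusted p = 2.36e-09). METAP1 changed less, from 102, 99.4 and 96.2 CPM under normoxia to 81.3, 75.9 and 75.2 CPM under hypoxia, a log2-fold change of -0.36 (SE 0.055, edgeR adjusted p = 1.35e-05). Neither gene had overlapping conditions. Per length, METAP2 made up 69.98% ± 0.638 of the summed FPKM of both genes under normoxia and 65.2% ± 1.64 under hypoxia (p = 0.1 in a two-sided exact permutation test, which cannot go lower here). Their summed level was 58.7 ± 1.14 FPKM under normoxia and 40.9 ± 1.19 FPKM under hypoxia.

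ACBD6 did not pass the threshold. It was at 36.3, 34.4 and 35.6 CPM under hypoxia and 37.0, 39.2 and 39.6 CPM under normoxia, with a log2-fold change of -0.12 (SE 0.065, edgeR adjusted p = 0.0915). The conditions did not overlap, but the gap between the highest hypoxia and the lowest normoxia library was small. ACBD6 shares 1866 of its 7512 exonic bases with LHX4 on the opposite strand, a gene at 1.79 CPM under hypoxia and 4.03 CPM under normoxia.

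**Figure D2:**
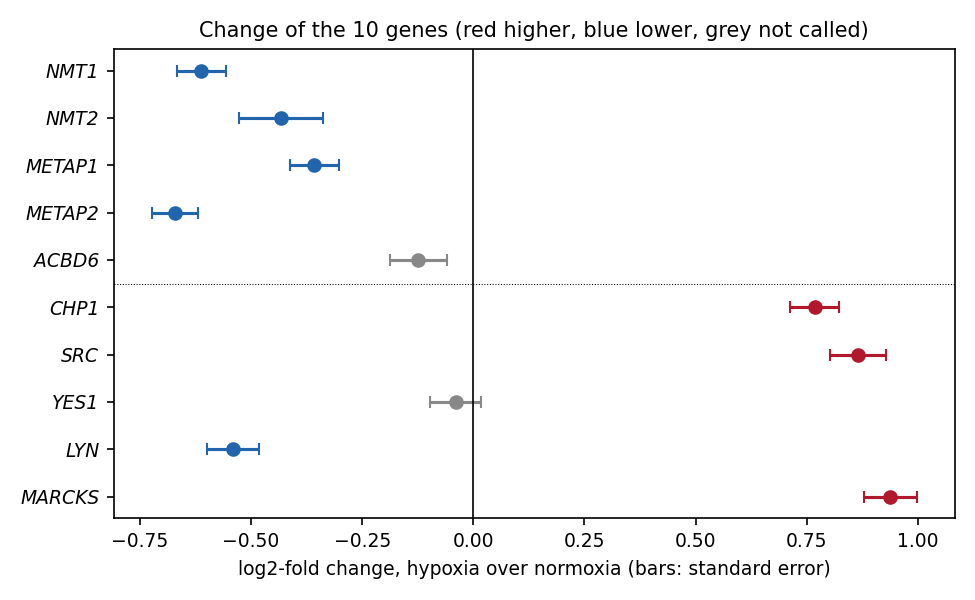
Log2-fold change (hypoxia over normoxia) of the 10 genes from the counts, with the machinery above the dotted line and the substrates below it; bars are standard errors. NMT1, NMT2, METAP1 and METAP2 lie between -0.67 and -0.36, and CHP1, SRC and MARCKS between 0.77 and 0.94.

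MARCKS showed the largest increase of the 10 genes. Its levels were 127, 122 and 121 CPM under hypoxia and 61.3, 62.9 and 69.4 CPM under normoxia. The conditions were far apart, and the log2-fold change was 0.94 (SE 0.059, edgeR adjusted p = 1.33e-10), a 1.92-fold difference. CHP1 was at 169.7, 156 and 161 CPM under hypoxia and at 95.6, 98.4 and 91.9 CPM under normoxia. Its log2-fold change was 0.77 (SE 0.055, edgeR adjusted p = 7.34e-10), a 1.70-fold difference without overlap.

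The SRC family kinases moved apart. SRC, the founding member, was at 180.1, 189 and 186 CPM under hypoxia and at 102, 92.2 and 111 CPM under normoxia. It rose by a log2-fold change of 0.87 (SE 0.063, edgeR adjusted p = 9.51e-10). LYN, best known from blood cells but also present in epithelial tumours, was at 79.1, 77.3 and 80.4 CPM under hypoxia and at 117, 122 and 106 CPM under normoxia. It fell, with a log2-fold change of -0.54 (SE 0.059, edgeR adjusted p = 1.82e-07). YES1, a close relative of SRC, was at 87.8, 96.4 and 89.3 CPM under hypoxia and 91.0, 92.3 and 98.1 CPM under normoxia. These ranges overlapped and the log2-fold change of -0.040 (SE 0.057, edgeR adjusted p = 0.529) was smaller than its error. For SRC and LYN the conditions did not overlap.

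Of the other family members, FYN was at 3.91 ± 0.329 CPM under hypoxia and 2.04 ± 0.752 CPM under normoxia, a log2-fold change of 0.95 (SE 0.24, edgeR adjusted p = 0.00158). LCK had 3 to 24 counts in a library and did not pass. FGR had at most 2 counts in any library, below the filter, and BLK had no entry under this symbol in the count table. Per length, the family summed to 61.3, 65.8 and 62.5 FPKM under hypoxia and to 49.3, 46.6 and 51.1 FPKM under normoxia. SRC made up 57.0% ± 0.286 of this sum under hypoxia and 38.98% ± 2.25 under normoxia. The share of LYN was 12.9% ± 0.516 against 23.4% ± 2.42. That of YES1 was 28.4% ± 0.764 against 36.5% ± 0.697, although its own level did not pass the test. Each share separated the conditions without overlap, with p = 0.1 in a two-sided exact permutation test, again the limit of this design.

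**Figure D3:**
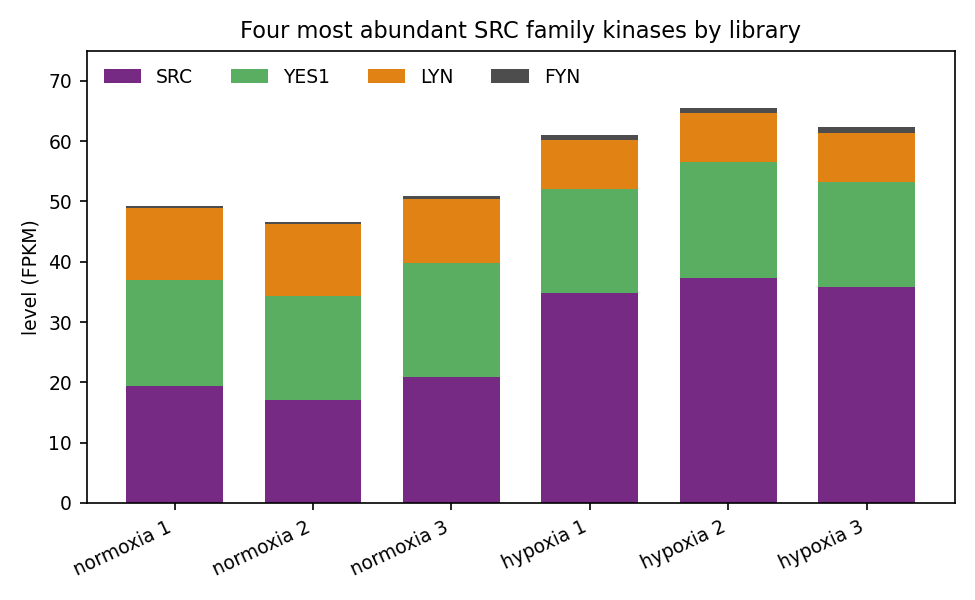
Summed levels (FPKM) of SRC, YES1, LYN and FYN in each library, as stacked bars that start at 0. SRC takes 36.6% to 41.0% of the family in the normoxia libraries and 56.7% to 57.3% in the hypoxia libraries, while the YES1 segment keeps about the same height.

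FPKM allow levels to be compared between genes, for all of the 10 except NMT1. Under normoxia METAP2 had the highest FPKM (41.1 ± 0.544), followed by ACBD6 (29.3 ± 0.832) and CHP1 (27.6 ± 0.778). SRC (19.1 ± 1.98 FPKM), YES1 (17.9 ± 0.783 FPKM) and METAP1 (17.6 ± 0.682 FPKM) overlapped and could not be ordered, and MARCKS (14.8 ± 1.01 FPKM), LYN (11.5 ± 0.712 FPKM) and NMT2 (4.48 ± 0.0394 FPKM) came last. Under hypoxia CHP1 was first with 48.6 ± 1.75 FPKM and SRC second with 36.0 ± 1.23 FPKM. MARCKS (29.2 ± 0.805 FPKM), ACBD6 (27.8 ± 0.505 FPKM) and METAP2 (26.7 ± 1.24 FPKM) followed, and each overlapped its neighbour. YES1 (17.98 ± 1.13 FPKM), METAP1 (14.2 ± 0.601 FPKM), LYN (8.13 ± 0.0586 FPKM) and NMT2 (3.43 ± 0.490 FPKM) were lower, in this order and without overlap. The order rests on the gene lengths behind the FPKM. That of ACBD6 was 1293 bases, whereas its longest GENCODE transcript has 5261. For METAP1 (5542 against 2791 bases), NMT2 (5698 against 2907) and LYN (9859 against 5808) the length used was the longer one. The places of these 4 genes in the order, and the size of the METAP2 and SRC family shares given above, would therefore move with another choice of length.

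On the log2(FPKM + 1) scale, 7 of these 9 genes passed limma's test at an adjusted p-value under 0.05, against 81.0% of the 10975 genes tested. They were the same 7 genes in the same directions as in the counts, from a change of -0.61 for METAP2 to 0.94 for MARCKS. The FPKM come from the same libraries and counts, so this is no independent measurement.

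The genes whose profiles over the 6 libraries were nearest to that of NMT1, by Euclidean distance of centred log2 CPM among 11574 genes, were PI4KB (distance 0.048), EXOSC10 (0.051) and MRPL17 (0.056). Their log2-fold changes were -0.60, -0.64 and -0.60.

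The supply of fatty acyl-CoA was represented by 7 genes, of which 6 were tested and all 6 were higher under hypoxia (median log2-fold change 0.65), beside 39.2% of all genes tested. FASN, the fatty acid synthase, rose from 747 ± 35.5 to 1266 ± 65.5 CPM, a log2-fold change of 0.76 (SE 0.055). The acyl-CoA synthetases ACSL3 (log2-fold change 1.02) and ACSL1 (0.93) had the largest increases of the list, followed by ACSL5 (0.53), ACSL4 (0.31) and the acyl-CoA binding protein gene DBI (0.22). For these 6 genes the edgeR adjusted p was at most 0.00381. ACSL6 had 2 to 19 counts and was not tested.

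Of 5 further genes that act on nascent N-termini at the ribosome, 2 were lower and 1 higher (median log2-fold change -0.11), shares near or below the 38.5% and 39.2% of all genes tested. NAA15, the anchoring subunit of the N-terminal acetyltransferase NatA, fell by 1.48 on the log2 scale (138 ± 6.12 to 49.5 ± 3.90 CPM), and its catalytic partner NAA10 had a log2-fold change of -0.75. NACA, a subunit of the nascent polypeptide-associated complex, rose by a log2-fold change of 0.19 (edgeR adjusted p = 0.0036). BTF3 (0.062) and METAP1D (-0.11) did not pass.

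A wider list of known substrates gave no common direction. The 7 substrate groups together hold 56 genes, of which 48 were tested, and 12 were higher, 20 lower and 16 not called, where 39.2% of all genes tested were higher and 38.5% lower. Their median log2-fold change was -0.038, beside 0.023 over all genes tested. Of the 55 genes with a coding start in GENCODE, 53 had a glycine codon at position 2, and 42 of these also had a serine or threonine codon at position 6. The exceptions in the transcripts used were PPP3R2 and PRKACB.

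The ARF family, small GTPases of membrane traffic, was mostly lower. Of 6 genes, 5 were lower and 1 was higher (median log2-fold change -0.39), and all 6 had separate conditions. Among all genes tested, 38.5% were lower, 39.2% higher and 80.5% without overlap. ARF4 (log2-fold change -0.73) and ARF1 (-0.67) decreased the most, and ARF5 rose (0.18, edgeR adjusted p = 0.0133). ARF1, the most abundant of the family by CPM and by FPKM, went from 523 ± 21.4 to 329 ± 9.54 CPM.

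The calcium sensors went both ways. Of 11 listed genes, 6 were tested, and 2 (CHP1 and CIB1) were higher and 3 lower (median log2-fold change -0.46), against 39.2% and 38.5% of all genes tested. NCS1 (log2-fold change -1.10), HPCAL1 (-0.84) and PPP3R1, the calcineurin B subunit (-0.81), were lower. CIB1 rose by a log2-fold change of 0.17 (edgeR adjusted p = 0.0230) with overlapping conditions, and NCALD (-0.10) did not pass. The close relatives of CHP1, CHP2 and TESC, had no entry under these symbols in the count table.

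The MARCKS-type scaffolds also split. BASP1 rose by a log2-fold change of 1.63 (12.8 ± 1.22 to 39.5 ± 2.67 CPM), while RFTN1 (-1.32) and AKAP12 (-0.81) fell. MARCKSL1, the closest relative of MARCKS, was at 80.2 ± 3.70 CPM under hypoxia and 79.9 ± 0.0095 CPM under normoxia (log2-fold change 0.0064, edgeR adjusted p = 0.919).

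The next 3 groups are to be read against the same 39.2% higher and 38.5% lower among all genes tested. In the G protein alpha subunits 1 of 5 genes was higher (GNAO1, log2-fold change 1.68) and 1 lower (GNAI3, -0.24). Among subunits of AMPK and PKA and the PPM1 phosphatases, 1 of 6 was higher and 2 were lower. The beta subunits of AMPK went opposite ways, PRKAB2 with a log2-fold change of 0.77 and PRKAB1 with -0.43, and PRKACB was lower (-0.42). Of 15 substrates at organelles and in adaptors, 3 were higher and 6 lower. LNPK, a shaping protein of the endoplasmic reticulum (log2-fold change 1.00), and DEGS1, a ceramide desaturase (0.67), had the largest increases. AIFM2, also called FSP1, a suppressor of ferroptosis (-1.04), and CHMP6, a subunit of ESCRT-III (-0.83), had the largest decreases.

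**Figure D4:**
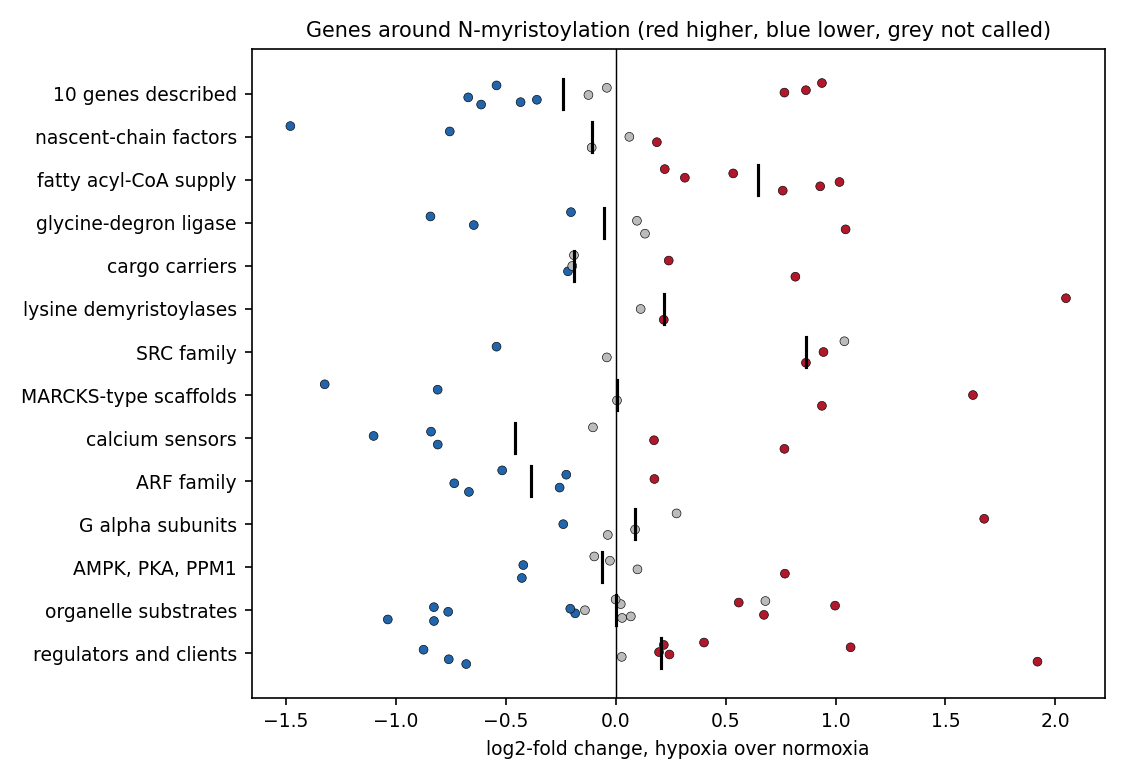
Log2-fold changes (hypoxia over normoxia) of the tested genes of 14 lists around N-myristoylation; each point is a gene, and vertical bars are list medians. All 6 points of the acyl-CoA supply lie above 0, and 5 of the 6 ARF family points lie below it.

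Over the whole table, 899 tested genes had a coding sequence with glycine at position 2. Of these, 373 (41.5%) were higher and 323 (35.9%) lower, beside 37.0% and 42.4% of the 12256 tested genes with a coding start. With a serine or threonine codon at position 6 as well, 79 of 196 genes (40.3%) were higher and 63 (32.1%) lower. These shares describe the genes, without a test.

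Of 10 genes that regulate the substrates or are regulated by them, 6 were higher and 3 lower (median log2-fold change 0.21), beside 39.2% higher and 38.5% lower among all genes tested. CSK, the kinase that holds SRC family members inactive, fell by 0.68 on the log2 scale (139 ± 4.64 to 86.7 ± 2.44 CPM), and the phosphatase gene PTPN1 was lower too (-0.76). PAG1, a membrane adaptor for CSK, rose from 0.592 ± 0.120 to 2.26 ± 0.143 CPM, both low levels. GPAT4, the acyltransferase that CHP1 serves as a cofactor, was lower (log2-fold change -0.87). The listed protein kinase C genes, PRKCA (1.07), PRKCE (0.40) and PRKCD (0.22), were all higher, and the rest of the family was not listed.

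CD274 is the gene of PD-L1. CD274 was at 13.0 ± 0.543 CPM under hypoxia and 24.4 ± 3.01 CPM under normoxia, a log2-fold change of -0.91 (SE 0.10, edgeR adjusted p = 2.23e-07), without overlap.

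The labels were checked with 5 genes of known response to hypoxia. CA9, NDRG1, VEGFA, SLC2A1 and EGLN3 were all higher, with log2-fold changes between 1.49 and 6.69, and each separated the conditions. The normoxia libraries were not uniform, and replicate 3 had the highest normoxia FPKM in all 5 genes. NDRG1 was at 32.8, 27.2 and 81.1 FPKM under normoxia, CA9 at 20.8, 17.0 and 43.2 and EGLN3 at 2.16, 1.33 and 3.91. The cause was not tested. Without normoxia replicate 3, 11390 genes were called, beside 11090 with all libraries. For the cell type, the squamous epithelial markers KRT5 (48.3 to 60.6 FPKM), CDH1 (35.7 to 101.8), TP63 (7.16 to 11.5) and KRT17 (5.12 to 12.5) were present in every library. KRT14, a basal keratin, had at most 1 count in any library. CDH1 was higher under hypoxia (log2-fold change 1.35) and had the highest FPKM of these markers there, while KRT5 had the highest in every normoxia library. KRT17 was also higher (1.06), KRT5 was lower (-0.18, edgeR adjusted p = 0.0130) and TP63 did not pass (0.12, edgeR adjusted p = 0.358). The summed level of the 5 markers, with CDH1 its largest part under hypoxia, was 171.0, 172 and 171 FPKM under hypoxia and 103, 101 and 118 FPKM under normoxia.

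Markers of other cell types were low. Of 4 leukocyte markers, PTPRC and CD3E had at most 2 counts in a library and ITGAM at most 15. CD14 was the most abundant and carried almost all of the summed leukocyte signal, 3.93, 3.53 and 3.56 FPKM under hypoxia and 0.533, 0.452 and 0.988 FPKM under normoxia. The 4 fibroblast markers summed to 3.62, 3.21 and 2.86 FPKM under hypoxia and 0.676, 0.504 and 0.934 FPKM under normoxia, mostly from COL1A1, while DCN had at most 4 counts. The 3 endothelial markers, of which CDH5 was the most abundant, summed to 0.317, 0.251 and 0.312 FPKM under hypoxia and 0.0659, 0.0737 and 0.178 FPKM under normoxia. All 3 sums were higher under hypoxia without overlap. Their part in the other results was not tested.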

How the data were processed

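The libraries were prepared with a SMARTER mRNA-Seq kit from total RNA. The authors deposited whole-number counts per gene, without normalization, and FPKM of the same genes. The submitters' processing notes name GRCm38 and mm10, which are mouse builds, although the genes are human. The aligner, annotation, counting tool and use of strand are not given in the sources used here. For 21775 of 21776 genes the deposited FPKM follow from the counts, 1 gene length and the library total, and NMT1 is the exception.

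The main test of the counts was that of edgeR 4.0.16, run in R 4.3.3 (quasi-likelihood F test, condition as the only term, TMM, filterByExpr, Benjamini-Hochberg adjustment over 14255 genes). Standard errors are the log2-fold change divided by the square root of F. Log2(FPKM + 1), for genes whose FPKM averaged 1 or more, was tested with limma 3.58.1. Replicates of a condition differed by more than sampling noise (chi-square per gene 5.11 to 11.5). 

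The 10 genes and all lists were chosen with earlier results of these data known. From each list, up to 2 increases and 2 decreases were named, the largest among called genes (adjusted p-value under 0.05) whose conditions did not overlap and whose log2 CPM averaged 1 or more, together with the 3 profiles nearest to NMT1, the hypoxia genes and CD274. ACSL4, ACSL5, DBI, PAG1, PRKCD, MARCKSL1 and the other list members given with values were named after their values were seen. Some genes of the lists are not reported here by name. Coding starts came from GENCODE release 29, 1 transcript per gene by APPRIS rank and coding length, a source chosen after the data were seen because no protein table was used. The alternatives were DESeq2 1.42.0 size factors and Wald test, other filters and pseudocounts, a replicate block and leaving out each library. On counts simulated for this comparison (14218 genes tested), 44 of 49 genes at a log2-fold change of -0.5 and 40 of 48 at 0.5 were found. Beside these, only 50 genes at -1 and 50 at 1 were given a change. Recovery where as many as 77.8% of genes pass, as in the libraries, was not tested.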

Additional observations from a re-analysis of the deposited data

Results flagged for a closer look

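The FPKM row listed under NMT1 lies outside the comparisons of counts. It lists a mean of 261 FPKM in the hypoxia libraries (SD 28.96, n = 3), compared with 2.47 (SD 1.31, n = 3) in normoxia. The direction is opposite to that of the counts of NMT1. The 6 values equal those of EGLN3, whose FPKM follow from its own counts, and do not follow from the counts of NMT1. They are therefore no measure of NMT1.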

How the results depend on the processing

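The number of genes called lay between 9967 and 11920 over other normalizations, tests, filters and the replicate block, and between 10669 and 11390 with one library left out. All of these gave 3 members higher and 5 lower (3 and 5 also with each library left out). With log2-fold changes required to exceed 0.5 in size, 3 were higher and 3 lower (NMT1, METAP2 and LYN), where the threshold passes 29.8% and 25.7% of all genes. NMT1 stayed between -0.66 and -0.53. The sign of YES1, which was never called, turned to 0.038 when every library had to reach 10 counts, a setting in which shared genes moved up by a median of 0.077. The same setting moved ACBD6, also never called, from -0.12 to -0.046. YES1 in counts lay between -0.086 and -0.020 with one library left out. In FPKM it was 0.0055 and turned to -0.043 without hypoxia replicate 2, -0.0043 without normoxia replicate 1 and -0.018 without normoxia replicate 2 (range -0.043 to 0.039 with one library left out), and the cause was not tested. The NMT1 share of reads differed by -1.99 to -0.87 percentage points with one library left out. The summed counts of NMT1 and NMT2 lay between -0.64 and -0.57, and the FPKM gave 7 calls throughout. Of genes with glycine at position 2, 40.6% to 42.6% were higher and 34.9% to 35.1% lower with the other filter or test. Among all genes tested, 4998 of 12665 were higher and 4969 lower when every library had to reach 10 counts. With the DESeq2 Wald test 5464 of 14255 were higher and 5395 lower. Shares over genes with a coding start were not taken in these settings. Same-numbered libraries did not deviate together (correlations 0.018, -0.069 and 0.0012). This gave no sign of pairing by number, but it cannot show whether they were prepared together. The replicate block gave 10875 genes and -0.61 for NMT1 and changed no call of the 10 genes. Per-base shares of NMT1 and NMT2 by coding length were not run.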

Other observations

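Genes that handle proteins before or after myristoylation fell into 3 lists, to be set beside 39.2% higher and 38.5% lower among all genes tested. The CUL2 ligase had 1 of 6 genes higher and 3 lower, the cargo carriers 2 of 5 higher and 1 lower, and the lysine demyristoylases 2 of 3 higher and 0 lower. Of 6 genes of the CUL2 ubiquitin ligase that recognises a free N-terminal glycine, the receptor ZER1 was higher (log2-fold change 1.05, edgeR adjusted p = 1.17e-09), whereas its sister receptor ZYG11B did not pass (0.13, edgeR adjusted p = 0.148). The core subunits ELOC (-0.84), CUL2 (-0.64) and RBX1 (-0.20) were lower, and ELOB (0.097) did not pass. Among carriers of myristoylated cargo, UNC119 was higher (log2-fold change 0.82, 19.9 ± 0.629 to 34.97 ± 1.10 CPM, SD, n = 3) and its paralog UNC119B lower (-0.22). ARL3, the GTPase that releases this cargo, was higher (0.24) with overlapping conditions, and ARL2 (-0.20) and RP2 (-0.19) did not pass. HDAC11, which removes fatty acyl groups from lysine, rose by a log2-fold change of 2.05, from 4.40 ± 0.462 to 18.2 ± 0.595 CPM (SD, n = 3), SIRT2 rose by 0.22, and SIRT6 (0.11) did not pass.

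The promoter windows of 7 of the 10 genes (RefSeq, GRCh38.p14, 250 bases before to 50 after the start) were searched on both strands for ACGTG and GCGTG, both forms of the core of the hypoxia response element, the second of them added after the data were seen. ACGTG had 0 matches in the windows of NMT1, NMT2, METAP1, ACBD6, CHP1, YES1 and MARCKS, and 24.7% of 15900 such windows of genes in the table held at least 1. GCGTG had 1 match for NMT1, 2 each for METAP1 and YES1 and 4 for ACBD6, with 0 for NMT2, CHP1 and MARCKS, and 45.0% of the 15900 windows held at least 1. METAP2, SRC and LYN had no entry. A match is a run of letters and not a site, and its absence says only that these letters are not in the window.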
